A study of Rattus norvegicus with 15 samples.

Results

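The microRNA rno-miR-21 was followed across hearts of male Sprague-Dawley rats, measured on 15 one-colour arrays. Its members were all spots that the array files name rno-miR-21, without the star form: 2 probes of 10 spots each, or 300 spots over all arrays, for 1 of the 350 miRNAs on the arrays. The 5 arrays labelled Veh held hearts of control rats exposed to vehicle. The 5 arrays labelled DM held hearts of rats made diabetic by 1 tail-vein injection of streptozotocin at 60 mg/kg, with plasma glucose above 300 mg/dL. The 5 arrays labelled GF held hearts of rats that were diabetic in the same way and also went through a 24 h fast with insulin, 0.5 IU/kg into the peritoneum, to make plasma glucose fluctuate. Streptozotocin kills the insulin-producing cells of the pancreas, so the DM and GF rats were models of insulin lack, and GF differed from DM by the fast and the insulin together. The labels give no age and no time between treatment and sampling. The RNA came from whole heart, in which fewer cells of a type and less miRNA per cell cannot be told apart.

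MicroRNAs are short RNAs that lead a silencing complex to messenger RNAs, mainly through bases 2 to 8 of the miRNA, its seed. miR-21 is found in many cell types and is known in the heart for its rise in overloaded or failing tissue, above all in fibroblasts, where it represses Spry1, an inhibitor of ERK signalling, and for its target Pdcd4. The question put to it here was the one of the series: whether its level differed between steady high glucose, fluctuating glucose and neither.

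The sequences below are those that the array signal stands for, credited to RefSeq on the rat build GRCr8, with the letters 5′ to 3′. The older array name rno-miR-21 stands for the 5′ arm of the hairpin of Mir21, and rno-miR-21* for the 3′ arm. In the mature sequences the capitals mark the seed.
rno-miR-21-5p, chr10:71902653-71902674, minus strand: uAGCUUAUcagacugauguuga
rno-miR-21-3p, chr10:71902615-71902636, minus strand: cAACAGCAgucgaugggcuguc
The hairpin is shown to place both arms, with the 5′ arm in capitals.
Mir21 hairpin, chr10:71902600-71902691, minus strand: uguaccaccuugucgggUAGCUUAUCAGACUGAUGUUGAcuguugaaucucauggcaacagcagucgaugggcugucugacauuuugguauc

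Mir21 lay in no annotated protein-coding gene of that RefSeq table, between Tubd1 and Vmp1. Of the 724 mature rat miRNA entries in the table, 0 others had the seed of miR-21-5p, so no miRNA of the same seed family could be set beside it. The longest run of letters that any other entry shared with it was 9, in rno-miR-541-5p. The other arm, rno-miR-21*, was on the arrays but was not measurable. Of its 293 usable spots over all arrays, 0 were well above background, and the scanner software detected it on 0 arrays, so no level or difference is given for it.

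Before the values, the arrays themselves need a description, because some repeat each other. Over 156 miRNAs, 5 of the 105 pairs of arrays differed by less than the measurement error that the scanner software states, with reduced chi-squares from 0.252 to 0.565, against 1.01 to 7.88 for the other pairs. These were Veh 1 with 3, DM 2 with 4, DM 3 with 5, GF 1 with 5 and GF 2 with 4, each on different slides. The arrays of a pair were averaged and counted as 1 sample, which left 10 distinct samples: 4 Veh, 3 DM and 3 GF. The labels do not say that arrays came from separate animals, so p-values measure the spread between these samples, which may be technical. The arrays also differed in overall brightness: the 75th percentile of the signal ran from 1749 to 3422, with means over distinct samples of 2205 ± 261 in Veh (SD, n = 4), 2027 ± 256 in DM (n = 3) and 2780 ± 529 in GF (n = 3). The main values are log2 signals scaled so that this percentile is equal on all arrays, and unscaled values stand beside them. The part of brightness in the miR-21 result was not tested beyond this comparison.

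The signal of miR-21 was strong and even across its spots. Of its 300 spots, 295 were usable and all 295 were well above background; no spot on any array was saturated (0 in all). The coefficient of variation (SD over mean) over the spots of a probe on 1 array ran from 2.14% to 11.8%, with a median of 5.78%. The unscaled mean signal per array ran from 8910 to 22826 for probe A_26_P00001210, the brighter, and from 4210 to 11410 for probe A_26_P00001211. The probes ran in parallel: on the log2 scale they differed by 0.97 to 1.14 on the 15 arrays. Their scaled values correlated across the arrays with r = 0.986, a description only, as both probes share each array's RNA. The plot of the single spots shows this parallel course. The brighter probe gives the values that follow.

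**Figure D1:**
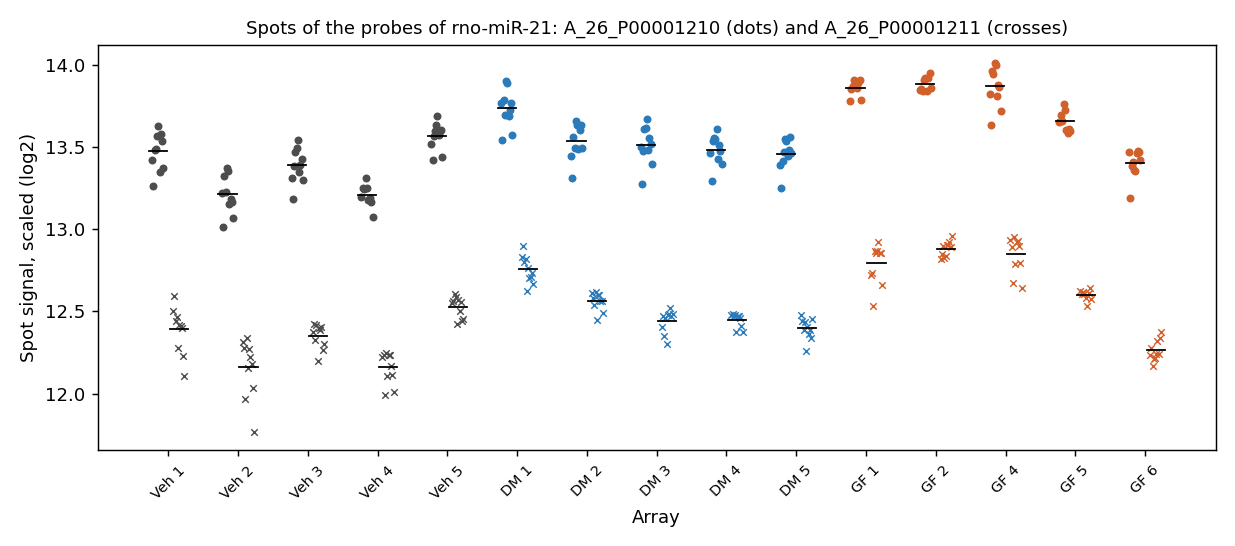
Scaled spot signals (log2) of the 2 probes of rno-miR-21 on each of the 15 arrays; dots are probe A_26_P00001210, crosses probe A_26_P00001211, black bars the mean of a probe's spots. The probes differ by 0.97 to 1.14 on every array and move together between arrays.

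Scaled miR-21 was higher on average in GF than in Veh, with DM between them, but the groups overlapped. The Veh samples measured 13.43 (arrays 1 and 3), 13.21 (array 2), 13.21 (array 4) and 13.56 (array 5) on the log2 scale. The DM samples measured 13.73 (array 1), 13.51 (arrays 2 and 4) and 13.48 (arrays 3 and 5). The GF samples measured 13.76 (arrays 1 and 5), 13.87 (arrays 2 and 4) and 13.40 (array 6). The highest samples were thus 2 of the 3 GF samples, both above all Veh and DM samples, while the sample GF 6 lay below every DM sample and below 2 of the 4 Veh samples. The means were 13.35 ± 0.18 in Veh (SD, n = 4), 13.57 ± 0.14 in DM (n = 3) and 13.68 ± 0.25 in GF (n = 3).

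**Figure D2:**
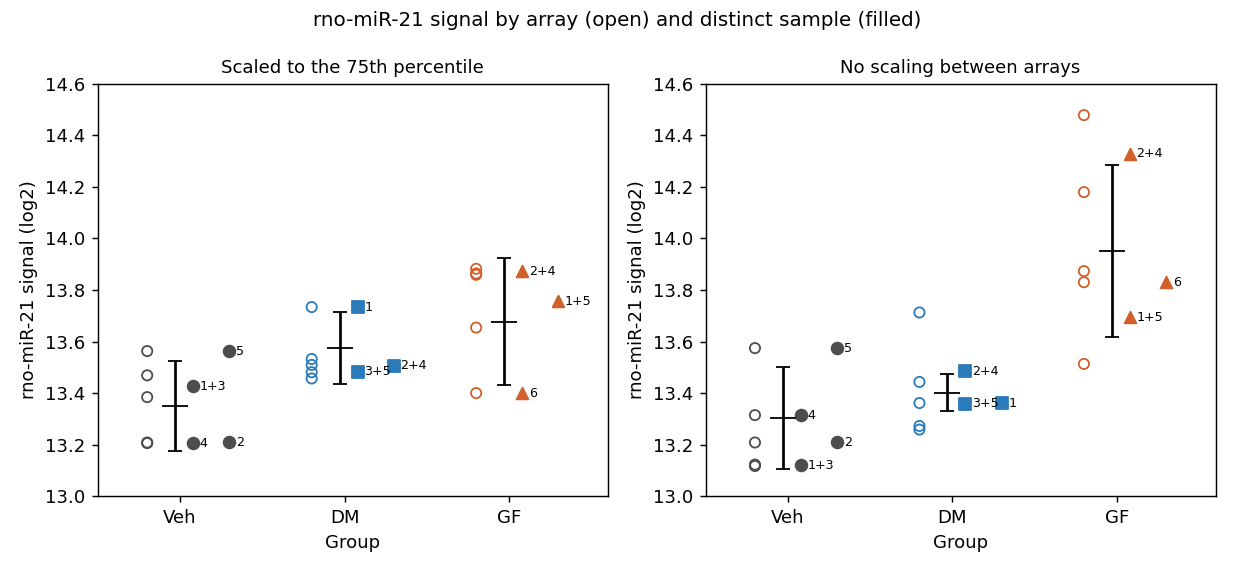
Signal of rno-miR-21 (log2) in Veh, DM and GF, scaled to the 75th percentile (left) and without scaling (right); open circles are single arrays, filled symbols distinct samples labelled by replicate, bars the mean and SD over distinct samples. With scaling GF 6 lies at 13.40 among the Veh samples; without scaling the 3 GF samples lie at 13.69 to 14.33, above all Veh and DM samples.

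In limma's fit of 165 tested miRNAs over the 10 distinct samples, with Benjamini-Hochberg adjustment and a threshold of 0.05, miR-21 passed in none of the 3 comparisons. The difference GF minus Veh was 0.33 on the log2 scale (SE 0.14, 95% interval 0.02 to 0.63 before adjustment, adjusted p = 0.15), or 1.25-fold (1.01 to 1.55). In that comparison 13 miRNAs passed, or 7.88% of those tested: 5 were higher in GF (3.03%) and 8 lower (4.85%). At an unadjusted p under 0.05 there were 51 of the 165. The difference DM minus Veh was 0.22 (SE 0.14, interval -0.08 to 0.53, adjusted p = 0.56), where 0% of the tested miRNAs passed (0 miRNAs, against 14 at an unadjusted p under 0.05). The difference GF minus DM, the comparison in the title of the series, was 0.10 (SE 0.15, interval -0.22 to 0.43, adjusted p = 0.80), and 0% passed there too (0 miRNAs, against 18 unadjusted). That interval spans a fall to 0.857-fold and a rise to 1.35-fold. In those last 2 comparisons the spread between samples therefore leaves the sign of the difference in miR-21 unsettled. For GF minus Veh the interval before adjustment lay just above 0. It included 0 with probe A_26_P00001211 (-0.04 to 0.66) and without GF 2 and 4 (-0.11 to 0.56), so that sign is not settled either.

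Exact permutation tests over the distinct samples, two-sided and adjusted over the 3 pairs of groups, gave p = 0.34 for GF against Veh, 0.34 for DM against Veh and 0.60 for GF against DM. With 3 samples against 4 the smallest exact p possible before adjustment is 0.057, and with 3 against 3 it is 0.10, so this test could not reach 0.05 whatever the values. In the order of the scaled means, Veh, then DM, then GF, the samples of each pair of neighbours overlapped.

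Without scaling, the GF samples stood clear of the others. The unscaled Veh samples measured 13.12 (arrays 1 and 3), 13.21 (array 2), 13.31 (array 4) and 13.57 (array 5). The DM samples measured 13.36 (array 1), 13.49 (arrays 2 and 4) and 13.36 (arrays 3 and 5), and the GF samples 13.69 (arrays 1 and 5), 14.33 (arrays 2 and 4) and 13.83 (array 6). All 3 GF samples were above all 4 Veh samples, which held for 13.9% of the tested miRNAs on the unscaled scale, and above all 3 DM samples, which held for 24.8%. The difference GF minus Veh was 0.65 (SE 0.20, adjusted p = 0.040), a call shared by 10.9% of the tested miRNAs, while the median of all tested miRNAs was itself 0.25 higher in GF. Relative to that median miR-21 was 0.40 higher, against 0.38 with scaling. Scaling multiplies all signals of an array by 1 factor, so these values could hardly differ and are no check on scaling. Unscaled GF minus DM was 0.55 (SE 0.21, adjusted p = 0.15).

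Scaling lowered miR-21 in the samples with bright arrays: GF 2 and 4 measured 14.33 unscaled and 13.87 scaled, and GF 6, with a 75th percentile of 3050, measured 13.83 unscaled and 13.40 scaled, so that GF 6 lay among the Veh samples with this scaling and above them without it. Within the close array pairs, which the labels do not say share RNA, miR-21 differed by 0.02 (GF 2 and 4) to 0.20 (GF 1 and 5) with scaling, and by 0.01 (Veh 1 and 3) to 0.45 (DM 2 and 4) without. Without GF 2 and 4, the scaled difference GF minus Veh was 0.23 (adjusted p = 0.41), and without GF 6 it was 0.46 (adjusted p = 0.087). Unscaled, it was 0.46 without GF 2 and 4 (adjusted p = 0.35), 0.71 without GF 6 (adjusted p = 0.15) and 0.77 without GF 1 and 5 (adjusted p = 0.019), so the unscaled call was lost without either of the first 2 samples.

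Some other ways to set up the fit moved miR-21 across the threshold for GF against Veh, and others did not. With the 75th percentile taken over all probes instead of those detected on every array, the difference was 0.46 (adjusted p = 0.049), 10.9% of miRNAs passed, and the GF samples (13.67 to 13.97) did not overlap the Veh samples (13.10 to 13.46), as for 19.4% of miRNAs. With all 15 arrays as independent samples it was 0.37 (SE 0.10, adjusted p = 0.013), in a fit where 35.8% of miRNAs passed for GF against Veh, 1.82% for DM against Veh and 3.64% for GF against DM; miR-21 did not pass in the last 2 (adjusted p = 0.31 and 0.24). Slide as a block on those 15 arrays gave 0.37 (adjusted p = 0.014, with 34.5% of miRNAs passing). The replicate block gave 0.45 (adjusted p = 0.0082, with 30.9% passing). No other array shares the replicate number of GF 6, so that block takes up GF 6. The 0.45 thus leaves out the lowest scaled GF sample and is no separate result from all 15 arrays. A fit of 15 arrays counts the close pairs as independent. With the pairs as a random block instead, GF minus Veh was 0.33 (adjusted p = 0.11). Nor did it pass with quantile normalization (adjusted p = 0.093), normexp background (0.058), the mean of its probes (0.17) or total gene signal (0.19). With further close arrays merged to 8 samples the adjusted p was 0.28. Scaled to the arrays' hur control spots, GF minus Veh was 0.36 (adjusted p = 0.36). With that scaling DM measured 13.65 ± 0.24 and GF 13.66 ± 0.21 (SD, n = 3 each), with GF minus DM at 0.006.

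Within slides, scaled miR-21 kept the order of the group means, with no test. These are means over single arrays. Each close pair had 1 array on each slide, so the slides are not separate sets of samples. On slide 1, which held 2 Veh, 3 DM and 2 GF arrays, GF minus Veh was 0.53, DM minus Veh 0.25 and GF minus DM 0.28 on the scaled log2 scale. On slide 2, which held 3 Veh, 2 DM and 3 GF arrays, the same differences were 0.25, 0.08 and 0.17. Unscaled, DM minus Veh was 0.34 on slide 1 and -0.07 on slide 2. The scaled GF arrays of slide 1 (13.86 and 13.88) lay above its Veh arrays (13.21 to 13.47), and those of slide 2 (13.40 to 13.86) overlapped its Veh arrays (13.21 to 13.56).

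**Figure D3:**
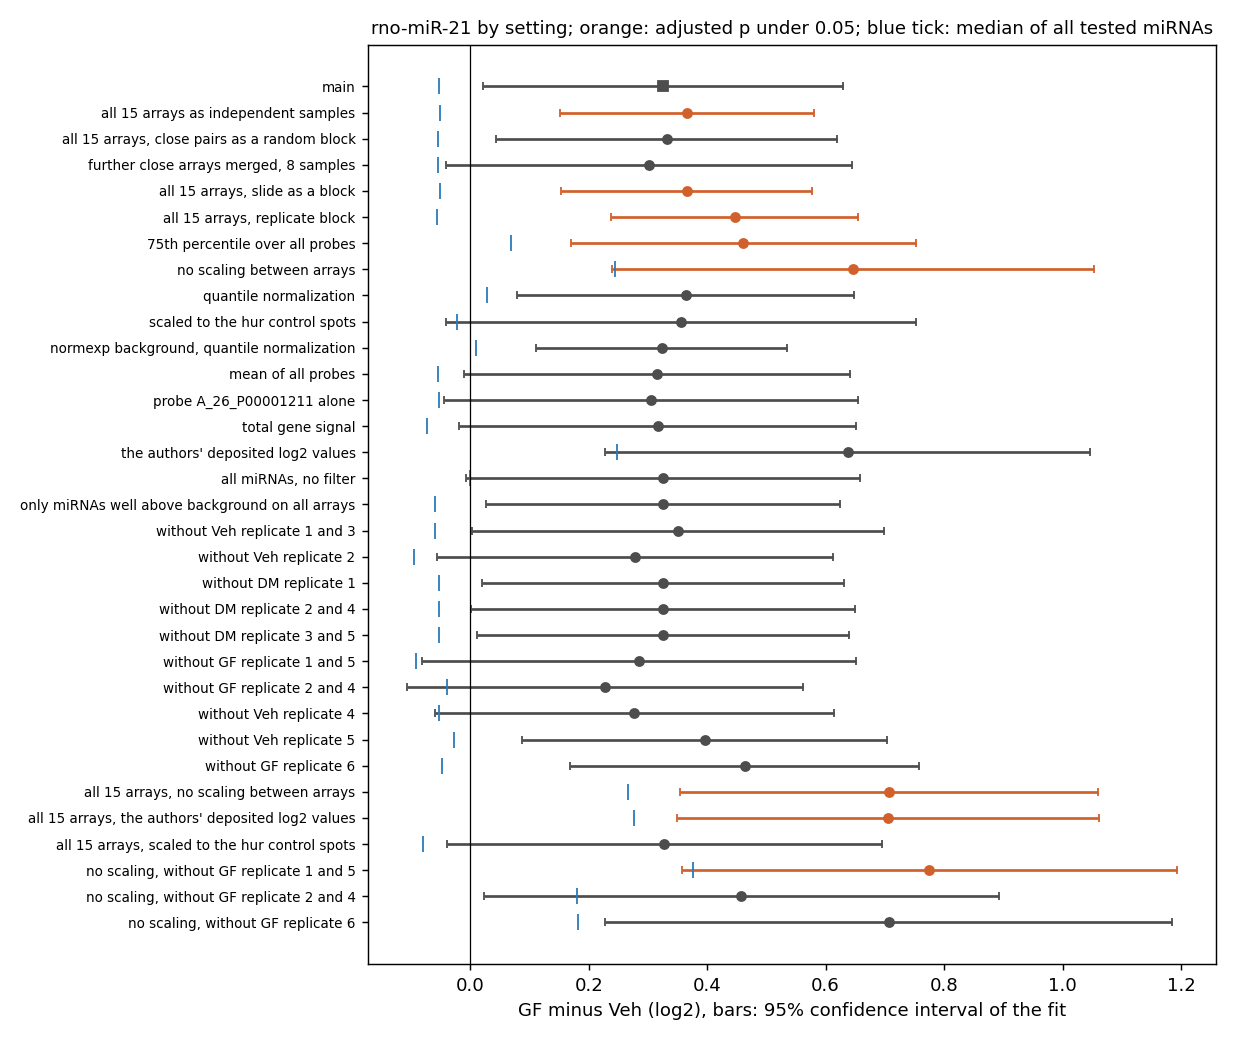
Difference GF minus Veh of rno-miR-21 (log2) under each setting, with the 95% confidence interval of the fit; orange marks an adjusted p under 0.05 and the blue ticks give the median of all tested miRNAs in the same fit. Every point lies above 0, from 0.23 without GF 2 and 4 to 0.77 without scaling and without GF 1 and 5, and the medians move right where arrays were not scaled.

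The probes gave like differences between groups. GF minus Veh was 0.33 from probe A_26_P00001210 and 0.31 from probe A_26_P00001211 (SE 0.16, adjusted p = 0.21), and DM minus Veh was 0.22 and 0.26. The group means of the dimmer probe were 12.30 ± 0.18 in Veh (SD, n = 4), 12.56 ± 0.17 in DM (n = 3) and 12.61 ± 0.31 in GF (n = 3), again with GF spread widest. The probes share a target and every array, so they are not replicates.

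In the authors' deposited table, which rests on 15 unscaled arrays, miR-21 is 1 of 35 miRNAs listed out of 149, with an uncorrected p of 0.0229 from a test of 3 groups. The authors' deposited table gives log2 differences of 0.71 for GF against Veh, 0.15 for DM against Veh and -0.56 for DM against GF. The authors' deposited tables of pairs list miR-21 for GF against Veh, among 30 miRNAs, and for DM against GF, among 20, but not among the 5 for Veh against DM. Recomputed on the deposited values and adjusted over the 149 miRNAs, the same test gave miR-21 an adjusted p of 0.15, and 4 miRNAs passed 0.05. On distinct samples its adjusted p was 0.44 with 0 miRNAs passing (9 before adjustment). With limma on the same deposited values over distinct samples, miR-21 differed by 0.64 between GF and Veh (adjusted p = 0.062).

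The miRNA whose scaled signal ran most nearly with miR-21 over the 10 distinct samples was rno-miR-101b, known for targeting Ezh2, with Pearson r = 0.94 and Spearman rho = 0.93. It measured 9.22 ± 0.13 in Veh (SD, n = 4), 9.34 ± 0.12 in DM (n = 3) and 9.39 ± 0.12 in GF (n = 3). Its r was 0.91 for deviations from the group means, 0.93 over all 15 arrays, 0.96 without scaling and 0.95 without the 2 samples farthest from the median of miR-21 (GF 2 and 4, and Veh 4). The lowest samples of both were Veh 2 and 4 and the highest was GF 2 and 4. GF 6 was the lowest GF sample in both, at 9.26 in miR-101b. The difference GF minus Veh of miR-101b was 0.17 (SE 0.10, adjusted p = 0.26) and did not pass.

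The next 4 were miR-326 (r = 0.84, rho = 0.84), the star form miR-296* (r = 0.84, rho = 0.81), miR-26b (r = 0.84, rho = 0.76) and miR-652 (r = 0.82, rho = 0.79). Within groups their r was 0.73, 0.78, 0.70 and 0.79, and over 15 arrays they were 0.76, 0.75, 0.84 and 0.77. Without the 2 farthest samples they were 0.81, 0.91, 0.79 and 0.75. None passed for GF against Veh, with differences of 0.34 (miR-326), 0.34 (miR-296*), 0.26 (miR-26b, adjusted p = 0.064) and 0.20 (miR-652). The signal of miR-296* was near the floor set at 4.30, from 4.44 in its lowest to 5.32 in its highest sample. All r share the samples and the scaling factor of each array, so they are descriptions and carry no p. Without scaling the median r of all other tested miRNAs with miR-21 was 0.67, against 0.09 with it.

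The sequences of miR-101b and miR-26b, the members of this group that also stand on the list of fibrosis-restraining miRNAs below, are shown with their near copies, since a probe may take up signal of the copy; the capitals mark the seeds.
rno-miR-101b-3p, chr1:236273982-236274002, plus strand: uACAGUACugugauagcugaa
rno-miR-101a-3p, chr5:121081691-121081711, minus strand: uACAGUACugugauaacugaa
rno-miR-26b-5p, chr9:83425723-83425743, plus strand: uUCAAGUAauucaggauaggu
rno-miR-26a-5p, chr8:127633063-127633084, plus strand: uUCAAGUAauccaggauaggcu
miR-101a and miR-101b differ at 1 position and share their seed, which is not that of miR-21. Signals of such close copies are uncertain, as the array chemistry may not part them. The r of miR-101a with miR-21 was 0.76 over the 10 samples and 0.53 within groups, and the r of miR-26a was 0.70 and 0.37.

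**Figure D4:**
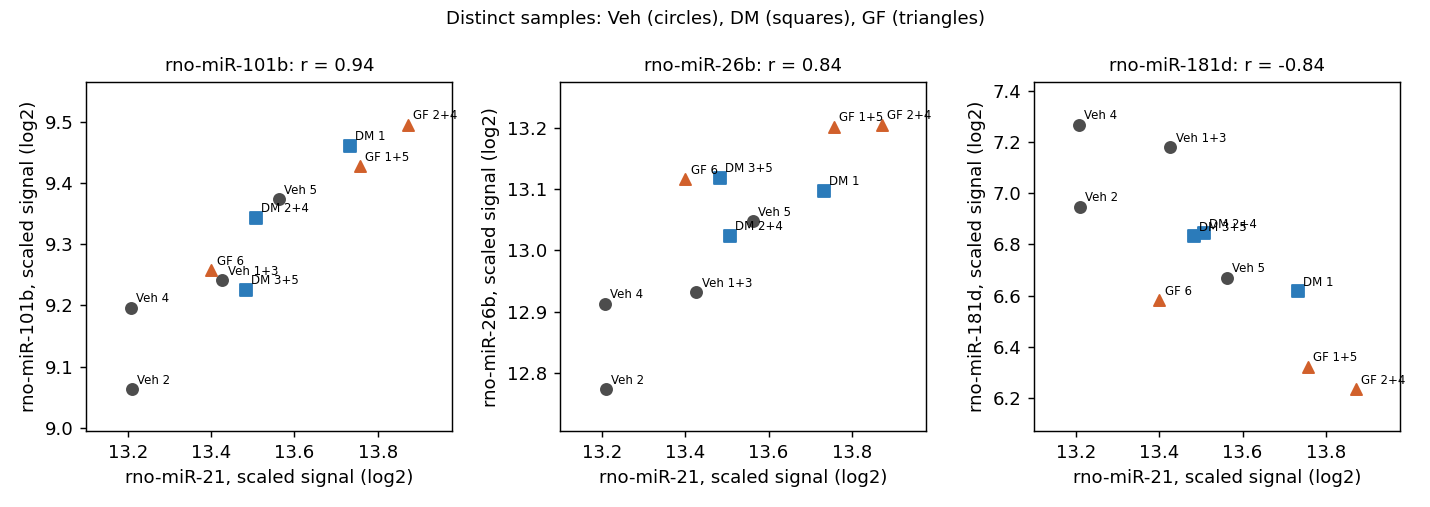
Scaled signal (log2) of rno-miR-101b, rno-miR-26b and rno-miR-181d against that of rno-miR-21 in the 10 distinct samples; circles are Veh, squares DM and triangles GF. miR-101b follows miR-21 in all 3 groups (r = 0.94), GF 6 lies low in both, and miR-181d runs the other way (r = -0.84).

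At the other end stood miR-181d (r = -0.84, rho = -0.78), miR-342-3p (r = -0.81, rho = -0.78) and miR-22* (r = -0.75, rho = -0.66). All 3 fell in GF against Veh in the scaled fit: miR-181d by 0.64 on the log2 scale (adjusted p = 0.033), miR-342-3p by 0.56 and miR-22* by 0.56 (adjusted p = 0.019 for both). Those calls were lost without Veh 1 and 3, Veh 2, Veh 4, or GF 2 and 4, and that of miR-181d also without GF 1 and 5; without GF 2 and 4, for example, the adjusted p were 0.14, 0.096 and 0.10. Without scaling their r with miR-21 were -0.20, -0.17 and 0.02. There the median r of all other tested miRNAs was 0.67, against 0.09 with scaling. The unscaled differences GF minus Veh were -0.31, -0.24 and -0.24, none of which passed. With scaling, r for deviations from the group means was -0.76, -0.81 and -0.48. Over 15 arrays it was -0.84, -0.79 and -0.75. Without the 2 farthest samples the scaled r were -0.67, -0.60 and -0.48.

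A list of other miRNAs known to rise in the stressed heart held 14, of which 13 were tested, among them miR-199a and miR-214 of fibroblasts, miR-23a, miR-24, miR-27a, miR-195 and miR-221. With limma, none of the 13 passed for GF against Veh (0 higher, 0 lower, against 6 at an unadjusted p under 0.05), where 7.88% of all tested miRNAs did. Of all 165 tested, 51 were under 0.05 unadjusted. With scaling 11 of the 13 had values below Veh, and without scaling 4. The scaled values had a median difference of -0.19 on the log2 scale beside -0.05 for all 165; unscaled, the list median was 0.14 beside 0.25. The 2 with the widest differences were miR-214 at -0.56 (SE 0.20, adjusted p = 0.092; 8.66 ± 0.27 in Veh, 8.10 ± 0.37 in GF) and miR-199a-5p at -0.48 (SE 0.16, adjusted p = 0.089; 9.26 ± 0.18 in Veh, 8.78 ± 0.24 in GF). Unscaled, miR-214 was at -0.24 and miR-199a-5p at -0.16. For DM against Veh the list median was 0.04 beside 0.02 for all, with 0 called (0 unadjusted). For GF against DM it was -0.20 beside -0.08, with 0 called (3 unadjusted).

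Of 14 miRNAs known for restraining collagen, Ctgf or Tgf-beta signalling, all 14 were tested and 1 passed for GF against Veh, where 7.88% of all tested miRNAs did. That was miR-101a, which measured 10.84, 10.68, 10.72 and 10.98 in the Veh samples, 11.06, 10.91 and 11.16 in DM, and 11.22, 11.26 and 11.22 in GF. Against Veh it rose by 0.43 in GF on the log2 scale (SE 0.09, adjusted p = 0.019). The call was lost without Veh 1 and 3, Veh 2, Veh 4, GF 2 and 4 or GF 6, with adjusted p from 0.056 to 0.10, while the difference ran from 0.39 to 0.49 over all single omissions. The list's median difference was 0.11 beside -0.05 for all tested, with 10 members above 0; unscaled it was 0.43 beside 0.25, and 3 members passed, higher in GF, where 10.9% of all tested miRNAs passed: miR-101a, miR-29a and miR-29b. With scaling, miR-29a and miR-29b, repressors of collagen genes, had values 0.31 (adjusted p = 0.15) and 0.34 (adjusted p = 0.16) above Veh, beside the 0.33 of miR-21; unscaled they were 0.64 (adjusted p = 0.043) and 0.66 (adjusted p = 0.040). The muscle miRNAs miR-133a and miR-133b had values 0.32 below Veh each (differences of -0.32 and -0.32, adjusted p = 0.15 and 0.094) with scaling, and unscaled they were at -0.004 and 0.004. For DM against Veh and for GF against DM, 0 members of this list passed (2 and 0 unadjusted), and its medians were 0.10 and 0.04.

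Of 7 miRNAs that inflammatory signals induce along with miR-21, of which miR-221 and miR-222 also stand on the stress list, 4 were tested and 1 passed for GF against Veh, lower in GF, where 7.88% of all tested miRNAs passed and 4.85% were lower. The count is too small to read anything from about the list. miR-146a, which dampens Toll-like receptor signalling through Irak1 and Traf6, measured 10.90, 10.69, 10.82 and 10.76 in Veh (arrays 1 and 3, 2, 4 and 5), 10.74, 10.85 and 10.50 in DM, and 10.33, 10.30 and 10.35 in GF. Against Veh it fell by 0.46 in GF on the log2 scale (SE 0.09, adjusted p = 0.019). Without scaling the difference was -0.14 (adjusted p = 0.61), and the scaled call was lost without Veh 1 and 3, Veh 2, Veh 4, or GF 2 and 4 (adjusted p from 0.056 to 0.096). The list's median difference was -0.26 beside -0.05 for all tested, and 0.06 beside 0.25 unscaled. miR-223, abundant in granulocytes, had a value of 0.52 above Veh (adjusted p = 0.060) and passed unscaled, at 0.84 (adjusted p = 0.027). For DM against Veh and for GF against DM, 0 of the 4 passed (1 and 2 unadjusted), with medians of 0.07 and -0.32.

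**Figure D5:**
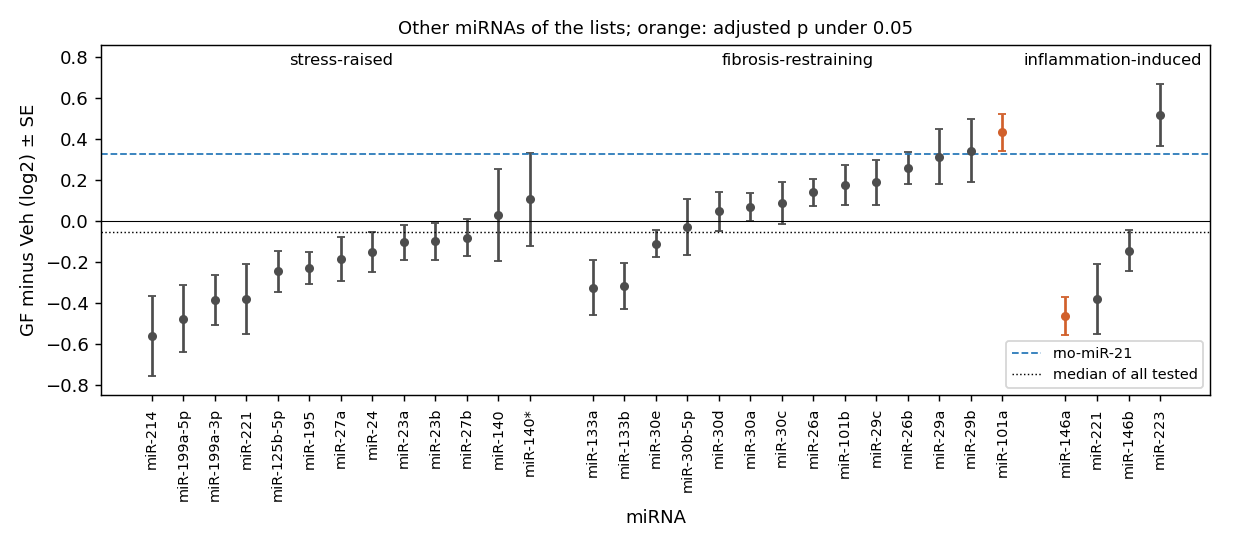
Difference GF minus Veh (log2, with SE) of each tested miRNA of the 3 lists; orange marks an adjusted p under 0.05, the dashed line the difference of rno-miR-21 and the dotted line the median of all tested miRNAs. miR-101a lies above the dashed line and miR-146a, whose call was lost without scaling, below 0; 11 of the 13 tested stress-raised miRNAs lie below 0 with scaling, against 4 without it.

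The arrays carried markers of the heart's cell types, and 0 of the 5 cardiomyocyte miRNAs, the markers of the labelled tissue, were at the floor in all samples. Beside the higher scaled miR-21 of GF, the summed scaled signal of those 5 ran from 123771 to 170133 in Veh, 126175 to 135184 in DM and 114407 to 132198 in GF. With scaling all 5 had values below Veh in GF, and without scaling 2 of the 5, with miR-1 at 0.18 and miR-499 at 0.13. For GF against Veh, 7.88% of all tested miRNAs passed (4.85% lower), and 51 of the 165 were under 0.05 unadjusted. Of the 5 cardiomyocyte miRNAs, miR-208, encoded in a myosin heavy chain gene, passed. It fell by 1.34 on the log2 scale (adjusted p = 0.019), and unscaled by 1.02 (adjusted p = 0.027), where 10.9% passed. The scaled call was lost at least without Veh 1 and 3, Veh 2, Veh 4, or GF 2 and 4, where 0 miRNAs passed. The 4 fibroblast markers summed to 4772 to 5638 in Veh, 4080 to 5235 in DM and 3293 to 4493 in GF. For GF against Veh 0 of the 4 passed (4 unadjusted, all 4 below Veh). Unscaled, their differences were -0.06 (miR-199a-3p), -0.16 (miR-199a-5p), -0.24 (miR-214) and 0.05 (miR-152), the first 3 of which also stand on the stress list. The 4 leukocyte markers on the arrays summed to 4378 to 4618 in Veh, 3819 to 4820 in DM and 3717 to 4382 in GF. With scaling 1 passed, miR-142-5p, which fell by 0.64 (adjusted p = 0.037), a call lost under the omissions given for miR-208. Unscaled, miR-142-5p was at -0.32 (adjusted p = 0.32), and the 1 that passed was miR-223, higher in GF. The 2 endothelial markers summed to 19165 to 23721 in Veh, 17427 to 20724 in DM and 15598 to 16896 in GF, with 0 passing for GF against Veh (2 unadjusted, both below Veh); unscaled, miR-126 was at -0.04 and miR-126* at 0.04. The 2 smooth muscle markers summed to 11644 to 18865 in Veh, 14690 to 16404 in DM and 14160 to 18112 in GF, and the 2 red cell markers to 6128 to 7320, 3436 to 6149 and 4586 to 5920; 0 of these passed for GF against Veh (0 unadjusted). For DM against Veh, 0 of the 2 red cell markers passed (2 unadjusted), where 0 of the 165 tested passed (14 unadjusted). With scaling, no list was higher in every GF sample than in every Veh sample. The sums of the fibroblast, endothelial and red cell lists were lower in every GF sample than in every Veh sample. The share of all tested miRNAs lower in this way was not counted. Unscaled, the red cell markers miR-144 and miR-451 were at -0.02 and -0.04. The part of cell makeup in the miR-21 values was not tested.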

How the data were processed

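Per the labels' protocols, rat heart RNA was purified on columns, and Cy3 was attached to 100 ng of it. Per the file headers and the submitters' processing notes, the scanner images went through Agilent's Feature Extraction, version 9.5.3.1. The intensity of each spot in the deposited array files is net of background, with no scaling across arrays. For 149 filtered miRNAs the authors deposited log2 values relative to the control mean, which could be recomputed from the unscaled total gene signal to within 2.05e-06. The authors' deposited tables of comparisons hold an uncorrected p-value per miRNA and log2 differences; the software behind them is not stated.

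Flagged spots were dropped (153 to 294 of 7953 per array), and gProcessedSignal was scaled by its 75th percentile among 254 probes, those that every array measured well above background. Signals under 19.7 (4.30 on the log2 scale) were set to that floor, each probe's spots were averaged, and a miRNA took the value of its brightest probe. Testing required a probe well above background on 3 or more arrays of any group, which 165 miRNAs met. Groups were compared with limma 3.58.1 under R 4.3.3, as moderated two-sided tests from 1 fit of all 3 groups. The limit of a reduced chi-square of 1 for averaging arrays, the members and the lists were chosen with earlier results of these data known. The miRNAs named were miR-21, its other arm, the 5 with the highest and 3 with the lowest r, list members past the threshold (otherwise the 2 with the widest difference) and a few further list members chosen after their values were seen. Normexp with an offset of 50 was run on median signals, as the files used here hold no mean signals. The fit was tested on simulated data with independent noise and added changes larger than the difference of miR-21. That test does not measure how well a difference as small as that of miR-21 is found. Alternatives are in the closing section. The number of arrays limits the precision. Other steps ran in Python 3.11.15.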

Additional observations from a re-analysis of the deposited data

Results flagged for a closer look

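Among 28 sets of Veh values of miR-21, its probes and the other named miRNAs, scaled and unscaled, 2 had a sample far from the other 3. Chance alone gives about 1 in 20 sets, so 2 of 28 is not read as more than chance. The sets also share samples, and miR-21 and its brighter probe hold the same values. Neither of the 2 sets was of miR-21. For miR-22* the Veh 4 sample measured 8.68 against 8.39 to 8.42 in the others, a gap of 0.877 of the range. For miR-199a-5p the Veh 5 sample measured 9.52 against 9.14 to 9.19, a gap of 0.855 of the range.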

How the results depend on the processing

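For miR-21, 37 alternatives were run for each comparison, and these kept the sign found with scaling over distinct samples. Outside them, unscaled DM minus Veh within slide 2 was -0.07, the opposite sign. Some alternatives could not change the difference: the brighter probe alone, the test of 3 groups, the permutation test and other filters. Leaving out a sample of the group not compared could not change it either. All of these repeat the difference of the fit with scaling over distinct samples. GF minus Veh passed the threshold, which it did not in that fit, with 15 arrays (0.37), slide as a block (0.37), the replicate block (0.45), the 75th percentile over all probes (0.46) and no scaling (0.65), and, in alternatives chosen after seeing the data, with 15 arrays unscaled (0.71), 15 arrays of the deposited values (0.71) and unscaled without GF 1 and 5 (0.77). GF minus DM passed only with 15 arrays unscaled (0.57, adjusted p = 0.048) and unscaled without GF 1 and 5 (0.68, adjusted p = 0.039), both chosen after seeing the data; DM minus Veh passed in none, with limma adjusted p from 0.25 to 0.99. The replicate block takes up GF 6, so its GF minus Veh leaves that array out. Within slide 1, GF minus Veh was 0.53. Leaving out 1 distinct sample at a time gave 0.23 to 0.46 for GF minus Veh, 0.14 to 0.29 for DM minus Veh and 0.004 to 0.24 for GF minus DM. Over 13 same-numbered pairs of arrays, deviations from group means correlated from -0.47 to 0.46 (median 0.10), with 7 over 0.1. These r were not set against those of other pairs, so they cannot decide whether the replicate numbers pair the arrays. The count of miRNAs past the threshold for GF against Veh was 13 in that fit, 59 with 15 arrays, 57 with slide as a block, 51 with the replicate block, 21 with the mean of all probes, 2 with the hur control spots or the deposited values, and 0 with no filter (47 before adjustment) or 8 samples (36 before adjustment). Leaving out 1 distinct sample gave 0 to 28. Higher calls were 5 of 13 in that fit, 17 of 18 with the percentile over all probes and 16 of 18 unscaled. The r of miR-22* with miR-21 turned from -0.75 to 0.017 unscaled, and GF minus Veh of miR-146a from -0.46 to 0.023 unscaled without GF 1 and 5. The cause of these changes was not tested.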
